A study of Drosophila melanogaster with 4 samples.

Results

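The cells described here were chosen as candidate cells of the embryonic dorsal vessel, the heart of Drosophila melanogaster, from single-cell RNA counts of whole embryos. A barcode was taken when it held at least 1500 unique molecular identifiers (UMIs, counts of captured RNA molecules), had at most 25% of its UMIs in mitochondrial genes, and carried a UMI of Hand and of at least 2 of tin, prc, tup, mid and H15, with 0 UMIs of bin and HLH54F. This rule found 819 cells among the 93931 barcodes that met the limits on depth and mitochondrial share, out of 109582 barcodes in all. They are called Hand cells below, because their other genes only partly bore out the label of cardioblasts and pericardial cells.

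Whole, untreated embryos of the wild-type strain OregonR were pooled and dissociated for 4 droplet libraries, 2 from stages 10-12 and 2 from stages 13-16. Each library came from its own collection with its own dates, and the stages were aged at different temperatures, so that stage, date and temperature cannot be told apart, and the library was the replicate (n = 2 per stage). The stage windows are broad, replicates need not cover them alike, and each library mixed embryos of several ages within its window. The libraries held between 71622535 and 394684653 UMIs. The Hand cells numbered 60 and 15 in replicates 1 and 2 of stages 10-12 and 180 and 564 in those of stages 13-16, with 994622, 456475, 3648146 and 15394261 UMIs between them. The early libraries, above all replicate 2, therefore rested on few cells.

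The dorsal vessel is a contractile tube along the dorsal midline. It is built from cardioblasts, which form the muscular wall and the lumen, and from pericardial cells, which flank the tube and later filter the hemolymph as nephrocytes. Both kinds arise from dorsal mesoderm under the NK homeobox factor tinman, with GATA, T-box and LIM homeobox factors acting beside it, and are then held to the tube by a matrix rich in the collagen-like protein Pericardin.

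The 6 genes that the rule asked for were higher in the Hand cells than in the remaining barcodes, except prc in stage 10-12 replicate 2, where no Hand cell carried it. The rule fixed this, and the levels are a description without a test. Levels are given as CPM, the UMIs of a gene per 1000000 UMIs summed over the cells of a library. Hand encodes a basic helix-loop-helix factor of heart, visceral muscle and hemocyte precursors and lies on chromosome 2L:10292679-10295385 of Release 6, minus strand. Its level was 346 and 280 CPM in replicates 1 and 2 of stages 10-12 and 174 and 251 CPM in those of stages 13-16, against 24.5 to 50.1 CPM in the other barcodes. Both early values were above both late ones, with 280 and 251 CPM close to each other.

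The gene tin (3R:21378977-21381970, plus strand), the tinman factor itself, stood at 228 and 72.3 CPM early and at 33.2 and 56.0 CPM late. In the other barcodes it was at 26.1 and 21.7 CPM early and 1.95 and 4.97 CPM late. Both early levels were thus above both late ones, in the Hand cells and outside them. A UMI of tin was present in 61.7% and 66.7% of the early Hand cells and in 20% and 27.5% of the late ones.

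The gene prc (3L:11958872-11966131, minus strand), which encodes Pericardin, was at 12.1 and 0 CPM early and at 16.4 and 74.5 CPM late. It was carried by 6 and 0 cells early and by 23 and 134 cells late. The T-box pair mid (2L:5461639-5467610, plus strand) and H15 (2L:5404280-5416593, plus strand), lie near each other. The level of mid was 234 and 85.4 CPM early and 116 and 159 CPM late, with overlapping stages. The level of H15 was 52.3 and 2.19 CPM early and 46.9 and 72.2 CPM late, again with overlapping stages. The LIM homeobox gene tup (2L:18859507-18881261, minus strand) was the most often detected of the 5, in 80% and 80% of the early cells and 91.7% and 87.8% of the late ones, at 288, 123, 192 and 205 CPM in the order of libraries used above.

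**Figure D1:**
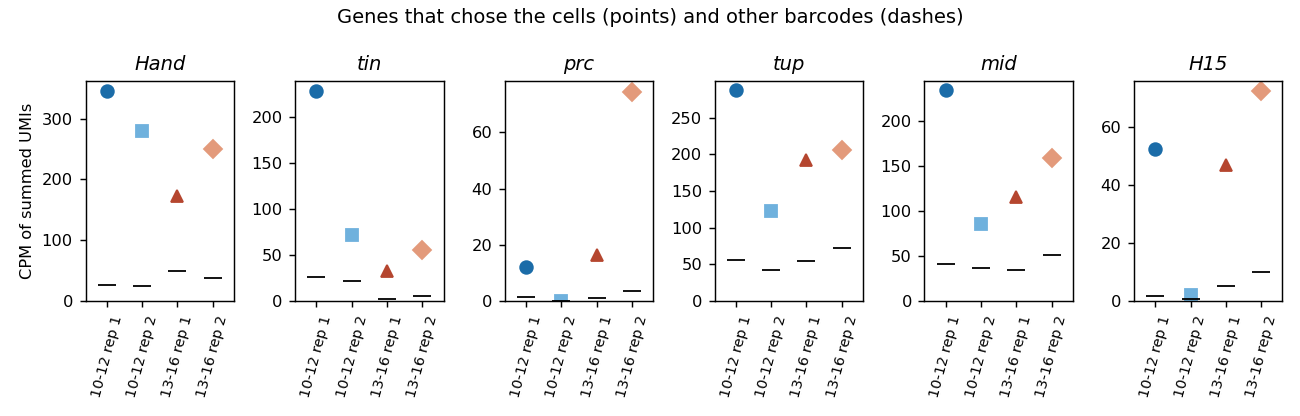
Levels of the 6 genes that the rule asked for, in CPM of summed UMIs, in the Hand cells and in the other barcodes of each of the 4 libraries. Points are the Hand cells and dashes the other barcodes, 1 of each per library. The Hand cells lie above the other barcodes, as the rule demands, except for prc in stage 10-12 replicate 2, and tin is higher early while prc is highest, at 74.5 CPM, in stage 13-16 replicate 2.

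Shares of cells with a UMI have to be read beside depth. Hand cells had median depths of 15965, 30090, 15033.5 and 14733.5 UMIs, against 3338, 2360, 2840 and 5118 UMIs in the other barcodes. Neuron barcodes, defined as other barcodes with a UMI of both elav and fne, served for comparison. The set is broad and held 19478 of the 35074 other barcodes of stage 13-16 replicate 2. In the neuron barcodes Hand was detected in 5.57% and 5.67% early and in 12.0% and 12.3% late. Their median depths were 8234.5, 4545, 5073 and 8241.5 UMIs. The gene tup was found in 17.2% to 30.4% and mid in 14.3% to 22.2% of the same neuron barcodes, while prc was found in 0% to 2.12%. H15 was found in 0.768% to 4.69%. A UMI of tup or mid, both also known from some neurons, was thus common in these barcodes, and a UMI of prc or H15 was not. Of the Hand cells, 463 (56.5%) carried a single UMI of Hand.

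The Hand cells made up 0.336% (95% Clopper-Pearson interval 0.256 to 0.432) and 0.145% (0.0811 to 0.239) of the barcodes early and 0.599% (0.515 to 0.693) and 1.58% (1.46 to 1.72) late. Intervals cover counting error only. Both late shares were above both early ones, and the exact two-sided permutation test gave p = 0.333, the smallest value that 2 libraries against 2 allow. With every barcode thinned to 1500 UMIs the rule kept 5, 4, 21 and 70 cells, or 0.0280%, 0.0386%, 0.0699% and 0.196%. Both late shares remained above both early ones, but all 4 were far smaller, so that the share measures depth as well as cells.

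At the limits of the rule, 610 cells had exactly 2 of the 5 further genes and 209 had 3 or more. Hand stood at 284, 351, 154 and 163 CPM in the first, in the order of libraries used above, and at 644, 55.0, 227 and 382 CPM in the second. The second were the higher in 3 of 4 libraries, and the exception, stage 10-12 replicate 2, had 2 such cells. The 1993 barcodes just outside, with Hand and only 1 of the 5, had Hand at 348 and 127 CPM late, so that the limit did not part high from low Hand. A further 299 barcodes were left out for a UMI of bin or HLH54F, markers of visceral muscle, and held Hand at 190 and 268 CPM late.

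Genes of the dorsal vessel that the rule did not use stood above the other barcodes only in part. All 16 such genes were measured, and together they came to 2628, 1273, 1774 and 1890 CPM in the Hand cells against 1182, 1070, 1109 and 1158 CPM outside. Of them, 5 were higher in all 4 libraries by any amount, 0 were lower in all 4, and 1, Sur, was at least 2-fold higher in all 4. Over all 9436 genes with enough UMIs, 15.9% were higher in all 4 libraries, 12% lower in all 4 and 0.382% at least 2-fold higher. The 5 of 16 exceed their share. The 1 at least 2-fold higher, Sur, rests on 2 UMIs in stage 10-12 replicate 2. The counts compare cells with the barcodes they were chosen from, by correlated genes, and carry no test.

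Sur (2L:10182557-10199117, minus strand), a sulfonylurea receptor known from the fly heart, was 87.2-fold and 41.0-fold above the other barcodes early and 10.7-fold and 9.05-fold late, from 30, 2, 43 and 243 UMIs. Early, 2 cells gave 25 of the 30 UMIs in replicate 1, and 1 cell gave the 2 UMIs in replicate 2. Him (X:18209427-18210741, plus strand), an inhibitor of Mef2 activity in muscle precursors, was 4.77-fold, 2.63-fold, 1.58-fold and 4.06-fold higher. The zinc finger homeodomain factor zfh1 (3R:30765926-30789202, plus strand), a marker of pericardial cells, was 2.85-fold, 1.50-fold, 1.70-fold and 2.16-fold higher. The muscle factor Mef2 (2R:9913496-9958858, minus strand), expected in cardioblasts, was at 0.919, 0.388, 1.11 and 0.581 of its level outside. Sur, Him and zfh1 were therefore above the other barcodes in every library and Mef2 was below them in 3 of 4.

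Neuronal markers stood beside these. The 5 listed neuronal genes summed to 1083, 1008, 1037 and 2282 CPM in the Hand cells against 657, 392, 727 and 1099 CPM outside, and 3 of the 5 were higher in all 4 libraries. A UMI of both elav and fne was present in 545 of the Hand cells (66.5%). The other barcodes, at lower median depth, carried both in 31268 of 93112. In stage 13-16 replicate 2 the counts were 397 of 564 Hand cells and 19478 of 35074 other barcodes. Plasmatocyte markers were low, at 120 to 198 CPM against 219 to 429 CPM outside. Of the 4 with enough UMIs, 3 were lower in all 4 libraries, against 12% of all 9436 genes. Whether cells of another type, doublets or free RNA account for part of the Hand cells was not tested.

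**Figure D2:**
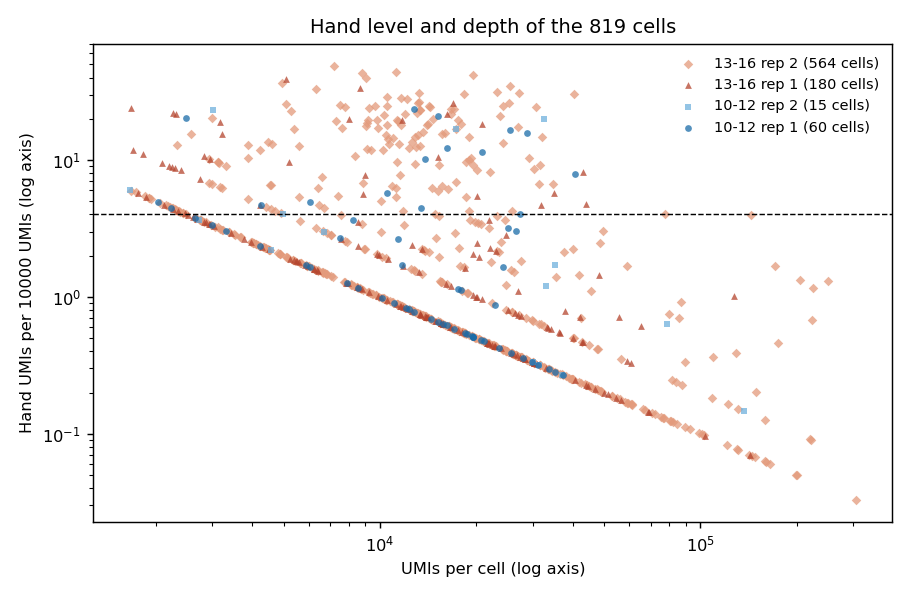
Depth of each Hand cell in UMIs against its Hand level per 10000 UMIs, both on log axes, coloured by library. The line marks 4 per 10000. Cells below it reach the greatest depths, and the low edge of the cloud is formed by the 463 cells with a single UMI of Hand.

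The other dorsal vessel genes summed higher in cells with more Hand, mostly through Him and zfh1. In 221 cells (27.0%) Hand exceeded 4 per 10000 UMIs, with 16 and 5 of them early and 38 and 162 late. This limit was chosen after the values were seen and is a range and not a type: 88 cells lay between 3 and 5 per 10000, and 30 of the high-Hand cells carried 1 UMI of Hand. The 16 dorsal vessel genes outside the rule summed to 4973, 4139, 3622 and 5724 CPM in the high-Hand cells and to 1874, 844, 1577 and 1349 CPM in the remaining Hand cells. In each library the high-Hand cells were the higher, although late they were the shallower, with medians of 3052 and 10552 UMIs against 17823.5 and 18256. The gene sli ran the other way late, at 162 and 156 CPM against 239 and 265 CPM, as did lbl. The remaining late cells also carried listed genes, zfh1 in 79.6% and 72.6% of them and Tl in 86.6% and 75.6%.

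Him and zfh1 were among the genes high with Hand. Him was at 1532, 1969, 1330 and 1795 CPM in the high-Hand cells and at 460, 252, 208 and 94.7 CPM in the remaining ones. For zfh1 the values were 1801, 1582, 1040 and 1960 CPM against 304, 146, 291 and 387 CPM. A UMI of Him was present late in 73.7% and 74.7% of the high-Hand cells and in 64.1% and 39.3% of the deeper remaining cells, and in 26.6% and 27.9% of the neuron barcodes. The summed levels of both genes separated the groups without overlap between libraries. The share of cells with a UMI did not in stage 10-12 replicate 2. There Him was present in 2 of 5 high-Hand cells and 5 of 10 remaining ones, and zfh1 in 3 of 5 and 6 of 10.

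Other genes high with Hand in all 4 libraries were Hesr, a Hes-related repressor, Pax, the focal adhesion protein paxillin, Septin4, the RNA-binding protein gene bru2, and apt. The lowest fold over the 4 libraries was 3.73 for Hesr, 2.93 for Pax, 2.61 for Septin4, 2.52 for bru2 and 1.87 for apt. In the late libraries the leaders were loh, an ADAMTS-like protein that recruits Pericardin to the matrix, the metalloproteinase inhibitor Timp and the neprilysin peptidase Nep4. After these 3 came bap, an NK homeobox factor of visceral mesoderm, at 31.2 and 52.0 CPM against 4.25 and 5.19 CPM. For loh (2L:10442534-10450080, plus strand) the levels were 185 and 455 CPM in the high-Hand cells and 4.55 and 24.7 CPM in the remaining ones. Timp was at 65.3 and 101 CPM against 2.43 and 6.45 CPM, and Nep4 (3R:20652567-20659904, minus strand) at 28.4 and 146 CPM against 2.12 and 6.0 CPM. The Ly6-type gene bero (2L:20858695-20861014, plus strand) was at 830 and 2820 CPM against 179 and 365 CPM. The study lists Him, tin, prc, bero, tup and chrb as markers of this organ and chose them on these same samples, so that they are not independent evidence.

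Some genes of other tissues ran the other way late, unlike bap. From the lowest range of Hand (up to 0.5 per 10000) to the highest (over 8 per 10000), the epithelial factor grh went from 383 to 70.7 CPM in replicate 1 and from 508 to 88.7 CPM in replicate 2. The neuronal gene elav went from 496 to 229 CPM and from 533 to 208 CPM, with a peak of 1234 CPM in the range 1 to 2 of replicate 2. The adhesion gene Fas3 went from 2844 to 1099 CPM and from 2005 to 767 CPM. In the early libraries the 5 neuronal genes were higher with high Hand instead, at 2284 and 2389 CPM against 696 and 801 CPM, but 1 cell gave 465 of 553 of these UMIs in replicate 1 and 141 of 142 in replicate 2. Without that cell the levels were 437 and 23.7 CPM. No cell was taken from the remaining Hand cells, so that these levels cannot be ranked against theirs.

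**Figure D3:**
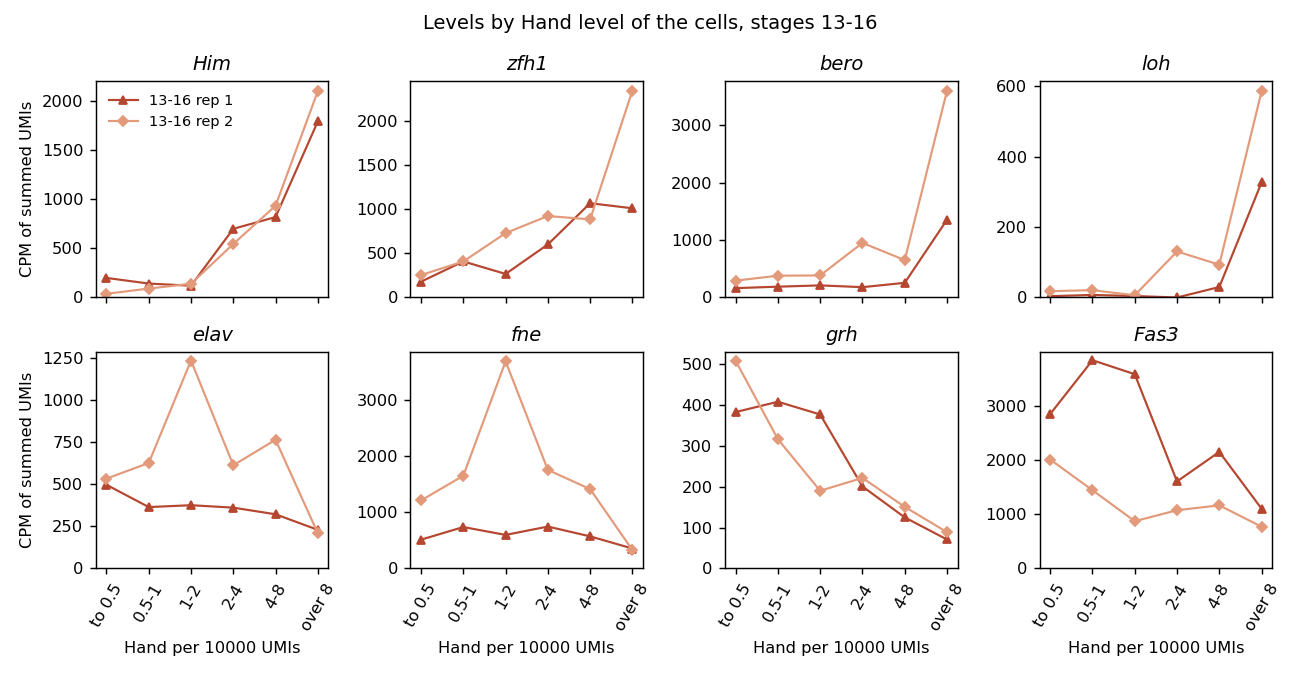
Levels of dorsal vessel genes and of genes of other tissues, in CPM of summed UMIs, in Hand cells of the stage 13-16 libraries grouped by their Hand level per 10000 UMIs. Him, bero and loh are highest in the range over 8 per 10000, where grh is lowest, and zfh1 is highest there in replicate 2 and in the range 4 to 8 in replicate 1 (1070 CPM).

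The combinations of rule genes showed which cells made up the bulk of the set. The most common combination was tup with mid and none of the other 3, in 330 cells (40.3%), of which 46 were high-Hand cells. In these 330 cells Hand was at 115 CPM, Him at 91.6 CPM, loh at 9.21 CPM and Sur at 1.51 CPM, while fne was at 1081 CPM and grh at 490 CPM. The 61 cells with both tin and prc looked different, with Hand at 1115 CPM, Him at 1544 CPM, zfh1 at 1737 CPM, bero at 2364 CPM and loh at 845 CPM. These values pool the libraries, and 53 of the 61 cells came from stage 13-16 replicate 2.

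Among the high-Hand cells of stages 13-16, mid and H15 on the one hand and prc on the other marked cells with different partner genes. The split was made after the values were seen and has no test. Cells with both mid and H15 numbered 9 and 31 in the late replicates, and cells with prc and neither mid nor H15 numbered 5 and 47, so that replicate 1 rests on few cells.

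The mid and H15 cells carried genes known from cardioblasts. Tl (3R:26799041-26842403, plus strand), the Toll receptor found on cardioblasts, was at 1416 and 1367 CPM in them and at 75.4 and 83.1 CPM in the prc cells. Mef2 was at 731 and 702 CPM against 37.7 and 58.0 CPM, and Sur at 388 and 452 CPM against 0 and 7.84 CPM. The zinc finger gene disco was at 982 and 616 CPM against 37.7 and 18.8 CPM, the related disco-r at 662 and 969 CPM against 0 and 12.5 CPM, and the RNA-binding protein gene how at 936 and 2116 CPM against 226 and 517 CPM. For each of these genes both libraries of the mid and H15 cells were above both libraries of the prc cells.

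The prc cells carried zfh1, loh, and eve and odd, factors known from subsets of pericardial cells. In them zfh1 was at 2149 and 2743 CPM against 457 and 962 CPM in the mid and H15 cells, Him at 2262 and 2548 CPM against 1142 and 1284 CPM, and loh at 679 and 832 CPM against 0 and 29.2 CPM. The homeobox gene eve was at 151 and 304 CPM against 0 and 2.25 CPM, and the zinc finger gene odd at 226 and 163 CPM against 22.8 and 76.4 CPM. The Slit receptor gene robo2 was at 1319 and 453 CPM against 114 and 63.0 CPM, the immunoglobulin family gene beat-IIa at 565 and 299 CPM against 0 and 4.5 CPM, and Septin4 at 1055 and 335 CPM against 45.7 and 65.2 CPM. Nep4, at 264 and 312 CPM, was at 0 and 33.7 CPM in the mid and H15 cells.

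By lists, 13 of 21 contraction genes with enough UMIs were higher with mid and H15 in both late libraries and 1 was higher with prc. In replicate 1 many of the 13 rested on few UMIs. There wupA and Mlp60A had 1 UMI against 0, and up, TpnC47D, RyR and Strn-Mlck had 2 against 0. The prc cells of that library held 26528 UMIs in all, and a gene at 0 there counted as lower. Over all 4863 genes the shares were 25.6% and 22.6%. Of 24 matrix and integrin genes 12 were higher with mid and H15 and 7 with prc, and of 7 nephrocyte genes 1 and 4. Guidance genes divided 10 to 7 of 23.

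**Figure D4:**
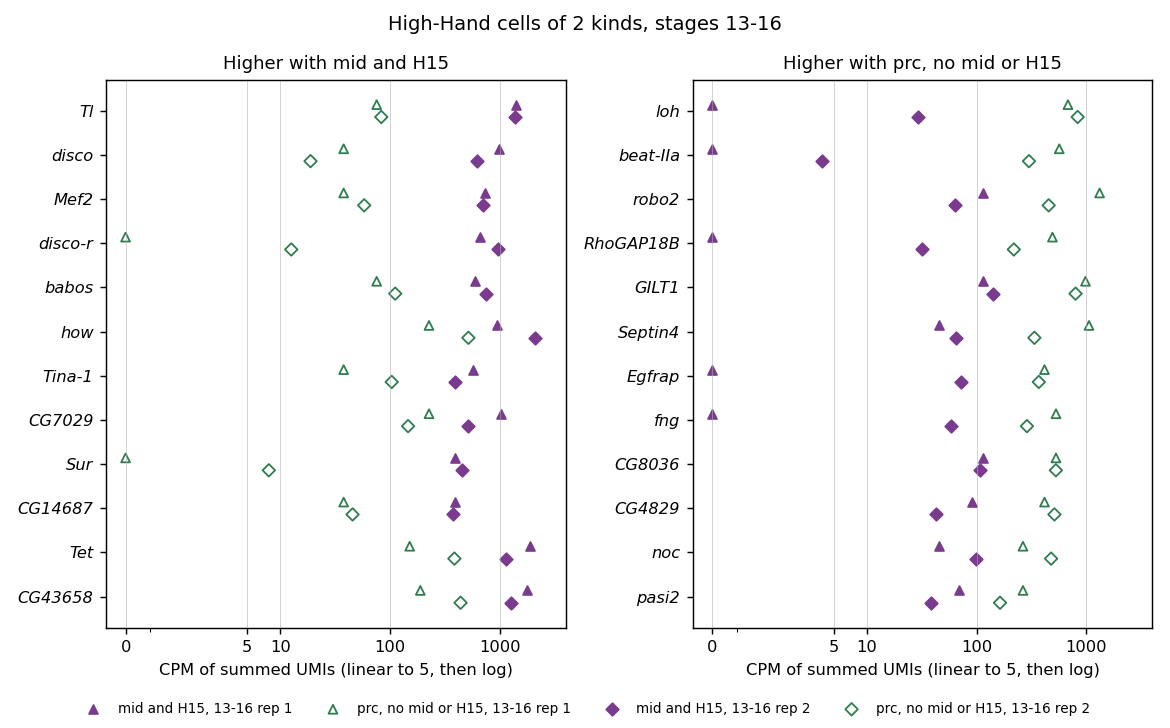
Levels in CPM of summed UMIs, on an axis linear up to 5 CPM and logarithmic beyond, of the 12 leading genes of each side in high-Hand cells of stages 13-16 that carry mid and H15 or that carry prc without mid or H15, 1 point per library. Filled points are cells with mid and H15 and open points those with prc. The genes were picked by their lowest fold over these same libraries, so that the gap between the 2 kinds was largely fixed by the choice.

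Mef2 and zfh1, the textbook pair for cardioblasts and pericardial cells, did not divide the whole set. Of the 819 cells, 99 (12.1%, Clopper-Pearson 9.93 to 14.5) had Mef2 only, 203 (24.8%, 21.9 to 27.9) zfh1 only, 413 (50.4%, 46.9 to 53.9) both and 104 (12.7%, 10.5 to 15.2) neither. The libraries differed more than these pooled counting intervals, with zfh1 only in 6.67% to 28.2% and both in 45% to 62.8% of the cells of a library. Mef2 was also detected in 32.5% to 49.3% and zfh1 in 45.6% to 56.5% of the neuron barcodes, so that a UMI of either was common there too. zfh1 is also known from motor neurons. With each cell thinned to 1500 UMIs, 5.74% had both and 50.9% neither.

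In the late libraries the Mef2-only cells were higher in muscle genes, but also in the epithelial factor grh and the adhesion gene Fas3, and lower in Hand. Mhc, the muscle myosin heavy chain, was at 192 and 252 CPM against 24.3 and 48.9 CPM in the zfh1-only cells. TpnC73F, a troponin C, was at 654 and 324 CPM against 93.0 and 36.9 CPM, and the calcium channel gene RyR at 99.8 and 57.3 CPM against 16.2 and 11 CPM. The 8 leading genes also held CG14960, which came first, CG5177, ImpE2, CG3588 and obst-A. grh was at 528 and 557 CPM against 214 and 251 CPM, and Fas3 at 3049 and 2472 CPM against 1732 and 1200 CPM. Hand was at 122 and 72.7 CPM against 372 and 430 CPM. The 5 listed neuronal genes summed to 1934 and 2765 CPM in the zfh1-only cells and to 1319 and 282 CPM in the Mef2-only cells, but elav alone was at 526 against 554 CPM in replicate 1. Among the genes highest in the zfh1-only cells were the axon guidance gene beat-Ia at 206 and 190 CPM against 0 and 4.64 CPM and stai, encoding stathmin, also known from neurons, at 162 and 308 CPM against 14.8 and 30.9 CPM. The POU homeobox gene acj6 of neurons was at 263 and 31.7 CPM against 3.70 and 3.61 CPM.

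Against all other barcodes, the genes outside the rule with the largest lowest fold over the 4 libraries, among those with at least 5 UMIs in the Hand cells of every library, included several known from neurons. Sur, described above, had too few UMIs in stage 10-12 replicate 2 to be ranked. The 15, with lowest folds of 2.75 down to 1.93, were Sema2b, VAChT, kek1, Lim3, stai, Appl, Tmtc1, CG45263, lncRNA:CR45312, stol, Mid1, CG12605, sff, CG46301 and aln. Sema2b, a secreted semaphorin, was at 33.2, 127, 114 and 167 CPM against 9.37, 2.96, 41.5 and 58.2 CPM. VAChT, the vesicular acetylcholine transporter, was at 11.1, 21.9, 19.7 and 49.5 CPM against 1.49, 0.168, 8.12 and 15.5 CPM. In the early libraries these values came mostly from 1 cell each, which gave 243 of the 464 UMIs of the 15 genes in replicate 1 (52.4%) and 168 of 216 in replicate 2 (77.8%). In the late libraries the top cell gave 7.94% and 7.37%.

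Of all genes, 36 were at least 2-fold higher and 51 (0.540%) at least 2-fold lower in all 4 libraries. Guidance and lumen genes, which include slit and its receptors, were higher in all 4 for 13 of 25, signals and receptors for 12 of 33, cardiac transcription factors for 8 of 25, and contraction genes for 3 of 26, with 5 of those lower. Against the 15.9% of all genes, guidance genes, signals and cardiac factors exceeded the background and contraction genes did not. Of all genes 12% were lower in all 4, beside 5 of 26 contraction genes. Without stage 13-16 replicate 1 the count at least 2-fold higher was 93, without 10-12 replicate 1 it was 57 and without 10-12 replicate 2 it was 67. The count at least 2-fold lower was 200 without stage 13-16 replicate 1.

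Between the stages, the test called 5 matrix genes higher and 5 cell cycle genes lower in the Hand cells. Of the matrix genes, loh and Tig had almost no early UMIs, and trol had few in stage 10-12 replicate 2. The test was edgeR's quasi-likelihood test on UMIs summed per library, with Benjamini-Hochberg adjustment over 7453 genes. It called 248 genes higher at stages 13-16 (3.33%) and 53 lower (0.711%) at an adjusted p under 0.05, and 1914 had an unadjusted p under 0.05. The calls needed both early libraries. Without stage 10-12 replicate 1 the test called 0 genes in either direction (1679 at an unadjusted p under 0.05), and without replicate 2 it called 0 higher and 1 lower (1407), while leaving out late replicate 1 gave 910 and 340 and leaving out late replicate 2 gave 624 and 167. With 1 library in an arm the spread comes from the other arm alone. The changes stayed in the same direction. Without early replicates 1 and 2, Col4a1 was at 2.26 and 1.71 and Cdk1 at -1.53 and -1.32 on the log2 scale. In 71 of the 301 called genes 1 cell gave more than 50% of a library's UMIs.

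Of 26 matrix and integrin genes tested, 5 were called higher and 0 lower. A positive log2 change was seen in 25, and the median of the list was 0.91 against 0.04 over all genes. trol, the perlecan of basement membranes, was at 10.1 and 2.19 CPM early and 75.7 and 67.5 CPM late, with a fitted log2 of 3.30 ± 0.50 (SE). Col4a1, a collagen IV chain, rose by 1.90 ± 0.35 and rhea, the talin that links integrins to actin, by 1.49 ± 0.28. loh was at 0 and 2.19 CPM early and 21.9 and 77.8 CPM late, with a fitted log2 of 6.07 ± 1.23. Tig, the integrin ligand tiggrin, had 3 and 0 UMIs early and 190 and 646 late, with a fitted log2 of 4.53 ± 0.67. With almost no early UMIs, loh and Tig entered the test only through the late libraries, where they are high. So did trol, since the early libraries alone, with 2.19 CPM in replicate 2, would not have passed the filter. loh, Tig and trol are given as a description. That both late libraries were above both early ones for the 5 called genes adds nothing to the call, since the stages overlapped for none of the 301 called genes. The share without overlap over all 7453 genes tested was not counted. Without either early library no matrix gene passed, and the median was 1.34 without replicate 1 and 0.68 without replicate 2, with Tig at 11.3 and loh at 11.4 in turn. With at least 3 of the 5 genes, which left 9 and 2 early cells, none passed, and Col4a1 was at 0.36 (adjusted p = 0.803), Tig at 2.83 and loh at 10.7.

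Of 21 cell cycle genes tested, 5 fell and 0 rose, and 20 had a negative change, with a median of -1.0. Cdk1, the mitotic kinase, was at 207 and 230 CPM early and 76.5 and 88.9 CPM late and fell by 1.44 ± 0.28 on the log2 scale. The mitotic kinase polo was at 130 and 177 CPM early and 40.0 and 53.4 CPM late and fell by 1.75 ± 0.33. CycB3, Top2 and ncd, a B-type cyclin, a topoisomerase and a kinesin, fell by 1.45 ± 0.27, 1.47 ± 0.29 and 1.69 ± 0.29. That the stages did not overlap for the 5 adds nothing to the call, since they overlapped for none of the 301 called genes. Without either early library no cell cycle gene passed, and the median was -1.15 and -1.04. None passed with at least 3 of the 5 genes or with cells thinned to 1500 UMIs, and 2 passed without the deepest 10% of cells.

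Elsewhere few genes passed. TpnC73F, at 23.1 and 4.38 CPM early and 155 and 118 CPM late, rose by 3.12 ± 0.55 and was the only one of 24 contraction genes to pass. The Hox gene Abd-B, which patterns the posterior, was at 115 and 94.2 CPM early and 291 and 318 CPM late and rose by 1.51 ± 0.28, 1 of 5 Hox genes. Abd-B lost its call without either early library, with at least 3 of the 5 genes (0.78, adjusted p = 0.510), without the deepest 10% of cells (0.85, adjusted p = 0.188) and with cells thinned to 1500 UMIs (1.32, adjusted p = 0.212). TpnC73F lost its call without either early library (4.91 and 2.58), with at least 3 of the 5 genes (2.38) and with cells thinned to 1500 UMIs (2.20). No gene passed among 24 cardiac transcription factors, 25 guidance genes, 33 signals and receptors, 9 nephrocyte genes and 5 neuronal markers. Of the 16 dorsal vessel genes only loh was called, from almost no early UMIs. Markers of other tissues moved too. The fat body gene apolpp was at 60.3 and 28.5 CPM early and 1105 and 327 CPM late, the tracheal gene Gasp was at 1.01 and 0 CPM early and 56.7 and 83.7 CPM late, and the epidermal gene sha was at 2.01 and 0 CPM early and 35.6 and 62.8 CPM late. All 3 were also higher late in the other barcodes, where apolpp went from 79.2 and 27.2 to 678 and 428 CPM. Their part in the result was not tested. Gasp and sha, with almost no early UMIs, entered the test only through the late libraries and are given as a description.

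**Figure D5:**
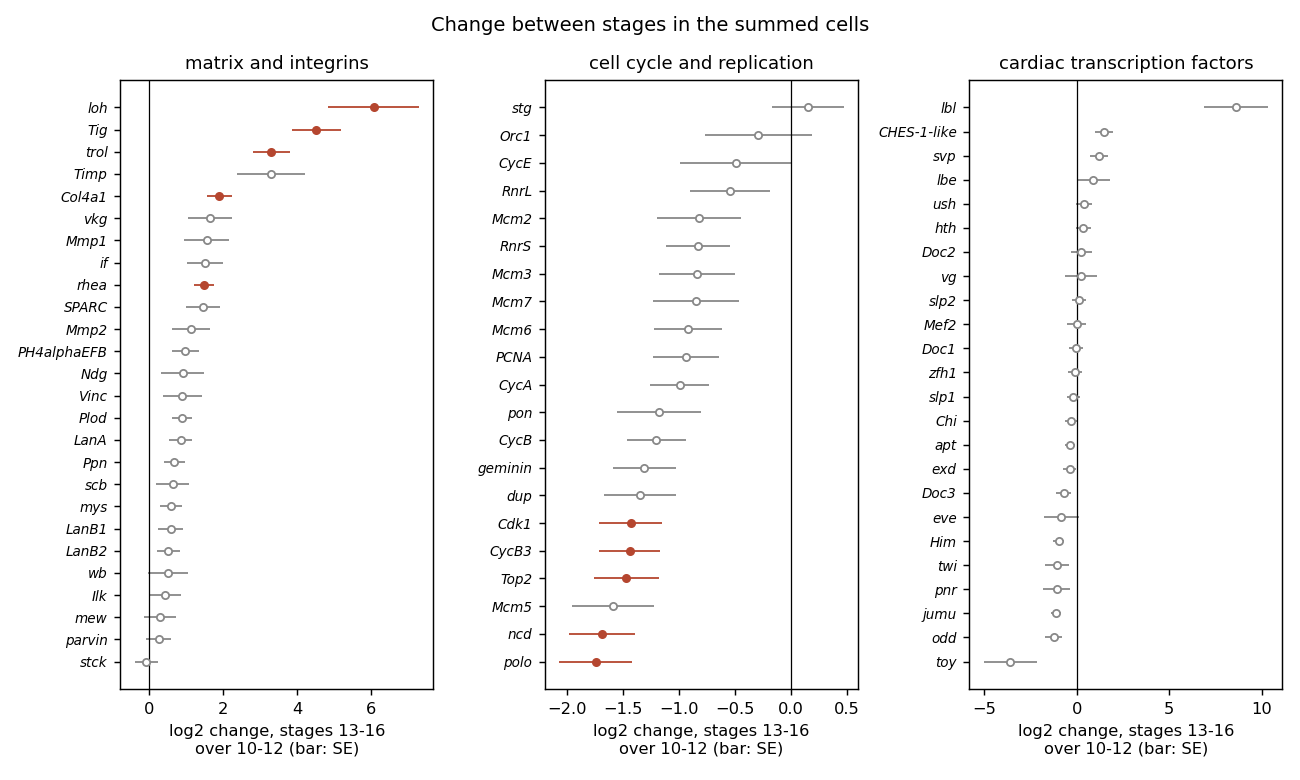
Log2 change from stages 10-12 to 13-16, with its SE as a bar, of each tested gene of the matrix, cell cycle and cardiac transcription factor lists in the Hand cells, where filled points passed at an adjusted p under 0.05. Of the matrix genes 25 of 26 lie above 0, of the cell cycle genes 20 of 21 lie below it, and the cardiac factors, 9 above and 15 below, hold no filled point.

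Among the named genes, the 8 largest rises were all at 0 of 1451097 early UMIs, so that only a lower bound holds, and they entered the test only through the late libraries, where they are high. They are given as a description. The bound was taken against 3 UMIs over both early libraries (2.07 CPM). CG6118 was at 118 and 325 CPM late, at least 57.0-fold higher, and CG4702 at 115 and 569 CPM, at least 55.8-fold higher. CG4115 was at least 33.8-fold, CG14960 at least 30.5-fold and Jhbp2 at least 25.2-fold higher, followed by Spn100A, a serpin, at 13.8-fold, CG15080 at 11.9-fold and CG16798 at 11.5-fold. These genes were also higher late in the other barcodes, by 5.14-fold to 303-fold. At the level of the other barcodes the early Hand cells would have given 2.29 and 0.327 UMIs of CG6118 in replicates 1 and 2.

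The largest falls were PH4alphaNE1, a prolyl hydroxylase gene, CG10035, dmrt11E, CG34034, Obp44a, CG13454, BobA and CG4440. PH4alphaNE1 was at 262 and 70.1 CPM early and 1.92 and 1.62 CPM late, a fitted fall of 6.62 ± 0.71 on the log2 scale. PH4alphaNE1, dmrt11E, CG34034 and Obp44a were at 2.74 CPM or less late. They entered the test only through the early libraries, where they are high, and are given as a description. BobA, a Bearded-family gene that restrains Notch signalling, was at 273 and 495 CPM early and 33.7 and 54.8 CPM late. It fell by 3.16 ± 0.44 (adjusted p = 0.0377). CG10035 fell by 4.21 ± 0.38 and CG4440 by 2.63 ± 0.40. The remaining 4 fell by 3.27 to 4.15. In the other barcodes too, both late levels were below both early ones for each of these genes except Obp44a. There PH4alphaNE1 went from 180 and 111 to 0.894 and 0.999 CPM and BobA from 363 and 566 to 64.4 and 56.2 CPM. Of the early UMIs of dmrt11E, 1 cell gave 10 of 12 in replicate 1 and 1 cell gave 14 of 15 in replicate 2.

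In the high-Hand cells alone, some contraction genes stood higher late, which is given as a description. The limit on Hand was chosen after the values were seen, the early sums held 242097 and 59428 UMIs from 16 and 5 cells, and most of the contraction genes that stood higher had almost no early UMIs, so that they could be compared only because they were high late. Act57B, a muscle actin, was at 140 and 135 CPM early (34 and 8 UMIs) and at 452 and 919 CPM late. Tm2, a tropomyosin, had 4 and 0 UMIs early and 94 and 548 late, and up, troponin T, had 1 and 0 early and 63 and 352 late. In late replicate 1 a single cell gave 47 of the 63 UMIs of up and 30 of the 94 of Tm2. loh had 0 UMIs in both early libraries and 65 and 865 late. PH4alphaNE1 went the other way, with 150 and 14 UMIs early and 0 in both late libraries. Leaving out libraries was not run for these cells.

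The stage change of the Hand cells differed from that of the other barcodes in few genes. edgeR's test of the interaction called 32 of 11378 genes higher in the Hand cells' change (0.281%) and 22 lower (0.193%), and in 35 of the 54 calls 1 cell gave more than 50% of a library's UMIs. Abd-B was among the genes whose change was higher. Of 26 contraction genes 8 had a lower change, namely Tm2, TpnC47D, Mlc2, Mlc1, up, Mlp60A, wupA and Prm. In stage 10-12 replicate 1, 798 of the 950 UMIs of these 8 genes came from 1 cell of 8258 UMIs. Without that library 0 contraction genes had a lower and 2 a higher change, and the median of the list went from -0.44 to 1.58. Over all genes the test then called 248 higher and 45 lower, without 10-12 replicate 2 108 and 81, without late replicate 1 59 and 40, and without late replicate 2 68 and 39. No gene passed among the matrix, cell cycle, cardiac factor, guidance and signal lists, so that the changes of matrix and mitotic genes above were not shown to differ from those of the other barcodes.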

How the data were processed

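According to the paper's methods, the authors aligned reads with Cell Ranger 6.1.2 to FlyBase genome 6.33, and they deposited the UMI counts of each gene in each barcode without normalization. The counts were whole numbers, for 17875 genes, 17799 of them with a symbol, which was taken from a table of identifiers. Gene positions are of Release 6 (dm6) from an annotation newer than the authors' one. Barcodes with under 1500 UMIs or over 25% of UMIs in the 38 mt: genes were left out. No doublets were removed; leaving out the deepest 10% of cells was an alternative. Pairs of libraries shared 94 to 389 barcode sequences (0.683% to 1.10% of the smaller).

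UMIs were summed per library and tested by a quasi-likelihood F test (edgeR 4.0.16, R 4.3.3) without a block, after filterByExpr and TMM scaling, at an adjusted p under 0.05, with the library as a term in the interaction fit, and with DESeq2 1.42.0 as an alternative. The SE given with an edgeR log2 change is the absolute change divided by the square root of its F statistic. The 8 genes of the rule received no test. The scripts were tested on simulated data. The rest was done in Python 3.11.15 (pandas 2.3.3, scipy 1.17.1, numpy 2.4.6, matplotlib 3.10.9). Named genes were the 8 largest rises and falls between stages and the 5 largest differences in each direction of the interaction (at least 50 UMIs), the 15 genes highest over other barcodes by lowest fold (at least 5 UMIs in every library), the 8 on each side of the Mef2 and zfh1 split (at least 20 UMIs), and listed genes by role. The genes that lead the high-Hand cells and the mid with H15 and prc groups were named after their values were seen. The members and lists were chosen with earlier results of these data known. Replicate numbers mark separate collections.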

Additional observations from a re-analysis of the deposited data

Results flagged for a closer look

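The genes given here drew attention because their stage change in the Hand cells differed from that in the other barcodes by edgeR's test of the interaction. The difference in log2 change was 13.30 ± 2.49 (SE, adjusted p = 0.00915) for CG4115 and 12.44 ± 2.77 (0.0368) for CG4702. Both had 0 UMIs in the early Hand cells, where the level of the other barcodes would have given 9.40 and 1.37 UMIs of CG4115 and 5.95 and 0.495 of CG4702, so that the fitted values are no bound.

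For the cuticle genes TwdlM and TwdlN the difference was 4.78 ± 0.92 (0.0108) and 3.88 ± 0.76 (0.0108), and for CG1368 4.22 ± 0.96 (0.0441). A single cell of stage 13-16 replicate 2 gave 722 of 747 UMIs of TwdlM, 465 of 700 of CG1368 and 109 of 144 of TwdlN.

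The change was lower in the Hand cells for Gyc89Db, a soluble guanylate cyclase (-4.67 ± 0.65, adjusted p = 0.000759), CG31300 (-4.14 ± 0.49, 0.000119), lncRNA:CR45312 (-3.54 ± 0.66, 0.00833), Frq1, a neuronal calcium sensor (-3.42 ± 0.51, 0.000860), and Prm, the muscle protein paramyosin (-3.22 ± 0.46, 0.000770). In stage 10-12 replicate 1 a single cell gave 29 of 31 UMIs of Gyc89Db, 122 of 126 of CG31300, 67 of 67 of Frq1 and 47 of 51 of Prm.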

How the results depend on the processing

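The counts of genes called between stages (248 higher, 53 lower) were 569 and 144 with DESeq2, 1094 and 264 with no filter beyond 1 UMI, 15 and 4 with at least 3 of the 5 genes, 73 and 16 with cells thinned to 1500 UMIs, 478 and 84 without the deepest 10% of cells, and 50 and 7 with Hand over 4 per 10000, an alternative chosen after seeing the data. Leaving out 1 library gave 0 to 910 higher and 0 to 340 lower. With the replicate number as a block the counts were 171 and 17, and the same-numbered samples did not deviate together (correlation -0.081), so that they share only a number. Under the block 3 matrix genes and 0 cell cycle genes passed. At least 3000 UMIs gave 251 and 53 and at most 10% mitochondrial UMIs 224 and 42. No named gene reversed between stages. With no filter the median change of all genes was 0.65 in place of 0.04.

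The interaction counts (32 and 22) were 15 and 11 with DESeq2, 273 and 44 with no filter, 5 and 5 with at least 3 of the 5 genes, 1 and 4 thinned, 121 and 140 with Hand over 4 per 10000, and 59 to 248 and 39 to 81 with 1 library left out. Among named genes the difference reversed with at least 3 of the 5 genes for TwdlM (-0.0796), TwdlN (-0.26), Gyc89Db (10.81), lncRNA:CR45312 (10.40), Frq1 (12.47) and Prm (10.22), with DESeq2 for CG1368 (-0.40), with Hand over 4 per 10000 for CG31300 (11.97), Frq1 (11.72) and Prm (12.62), and without stage 10-12 replicate 1 for Frq1 (-3.88 to 4.98 over the libraries left out) and Prm (-3.26 to 8.08). The cause was not tested.

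Genes at least 2-fold over the other barcodes in all libraries (36 higher, 51 lower) numbered 4 higher with at least 3 of the 5 genes, 4 higher and 5 lower thinned, 364 lower with Hand over 4 per 10000, and 47 to 93 higher and 35 to 200 lower with 1 library left out. The share of barcodes in the rule, in the order 10-12 replicates 1 and 2 and 13-16 replicates 1 and 2, was 0.0503%, 0.0193%, 0.133% and 0.443% with at least 3 of the 5 genes, 0.577%, 0.354%, 1.09% and 2.16% with at least 3000 UMIs, and 0.0280%, 0.0386%, 0.0699% and 0.196% thinned. With at most 10% mitochondrial UMIs it was 0.872% in 13-16 replicate 1. The share with Mef2 only was 5.26% with at least 3 of the 5 genes and 7.69% with Hand over 4 per 10000. With zfh1 only it was 30.0% thinned, 29.2% and 36.7%, with both 5.74%, 62.2% and 44.3%, and with neither 50.9% thinned and 3.35% with at least 3 of the 5 genes. Depth limits these shares, and 15 early cells in replicate 2 limit every comparison of the stages.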
